A study of Mus musculus with 15 samples.

Results

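The clone A.E7, a line of mouse CD4 helper T cells, was stimulated through the T cell receptor (TCR) with anti-TCR alone, which the array titles call anergic, or was mock treated. The samples described here are the 6 arrays of these treatments, out of 15 arrays in the series. They are 1 mock and 1 anti-TCR array on each of 3 Affymetrix chip types (A, B and C) that carry different probe sets. All cells were of the 1 clone, and for each treatment the RNA of 2, 4 and 6 h was pooled before it was put on the chips. The other 9 arrays come from cells given anti-TCR together with CSA, with a PKC inhibitor that the labels do not name further (titled PKCi), or with rapamycin, PD98059 and SB203580 at once (titled Combo). Their values are set beside those of the main pair for a few genes. Each pool was read once on each chip, so the differences below have no test and no error over cultures, and a pool of 3 times cannot tell an early change from a late one.

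The TCR of a helper T cell signals through calcium and calcineurin, through Ras and the MAP kinases, through protein kinase C and through phosphoinositide 3-kinase. A full response also needs a costimulatory signal such as that of CD28. Receptor engagement without it can leave a clone in anergy, a lasting state of poor cytokine production on later stimulation. The early transcription factors, cytokines and activation receptors that TCR signals induce are well known, so genes on lists of those were set aside. The account below is about other genes, about genes that were lower after stimulation, and about genes that several probe sets read alike.

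The values are array intensities on a linear scale, and each probe set was compared with itself. Before log2 was taken, values below the median of a chip type's 5 arrays (51.1 on A, 69.5 on B and 55 on C) were raised to that median, called the floor. A probe set was measured when its brighter value reached 4 times the floor, which 8861 of 36701 probe sets (24.1%) did. A gene is 1 symbol read on its brightest probe set by the mean over the 5 treatments, and 5803 of 15964 genes were measured. Higher, lower, rose and fell mean a difference of at least 2-fold. Where the dimmer value did not exceed the floor the fold is a lower bound and is given as "at least". Such a gene had to pass 2-fold once its brighter value was measured, and this holds for 63 of the genes that rose and 35 of those that fell. A letter before the end of a probe set's name marks shared or irregular probe design, and genes read on such a set are called suffixed.

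The cells carried most markers of the label. Of 9 CD4 T cell markers on the arrays 8 were measured. The other, Cd5, stayed below the floor at 12.1 in mock and 6.7 with anti-TCR. The summed intensity of the 9 was 10296 in mock and 8885 with anti-TCR, and Cd4 read 610.2 and 608. Cd3d (from 1050.2 to 511, 2.06-fold) and Cd3g (from 2569.9 to 1276, 2.01-fold), chains of the TCR complex, were lower, though not by 2-fold with arrays scaled to equal medians. Cd2, Cd28, Cd3e, Cd247 and Thy1 were under 2-fold, with log2 ratios between -0.29 and 0.80. None of the 2 CD8, 7 B cell or 8 erythroid and neutrophil markers was measured, and 1 of the 14 macrophage and dendritic cell markers was: Cd14, at 293 and 219. Summed intensities in mock and with anti-TCR were 9 and 10.7 for CD8 markers, 306 and 342 for B cell markers, 808 and 879 for macrophage and dendritic markers and 317 and 312 for erythroid and neutrophil markers. In such bulk RNA, fewer cells of a kind and less RNA per cell cannot be told apart. Precision was judged from genes with several bright probe sets. Between probe sets of a gene on the same chip type the log2 ratio had a spread of 0.69 (945 pairs), and between chip types 0.75 (1150 pairs), with 71.1% of the latter within 1 log2 unit. A 2-fold difference is 1 log2 unit and is little larger than this spread, so a call on 1 probe set is weak evidence for a single gene.

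Of the 5803 measured genes, 659 rose (11.4%) and 808 fell (13.9%). The median log2 ratio of all of them was -0.08. Rises reached further than falls: 79 genes were at least 8-fold higher and 8 at least 8-fold lower. Median intensities in mock and with anti-TCR were 194 and 698 for genes that rose and 554 and 195 for genes that fell, an order that follows from measuring a gene through its brighter value. Outside the known lists 622 genes rose and 806 fell. For 1250 genes 2 or more probe sets were bright. All bright probe sets lay at least 2-fold higher for 81 of them (6.48%) and at least 2-fold lower for 61 (4.88%), and these are called agreeing. A bright set whose dimmer value did not exceed the floor had to pass 2-fold, so its agreement is no independent check. This holds for both bright sets of Errfi1 and of Mmd. Sets that were not bright do not enter, and of the 4 probe sets of Mmd 2 were bright. Of the 81, 6 were on the known lists, 16 had 3 or more bright probe sets and 44 were read on 2 or more chip types. Of the 61, 0 were on the known lists, 10 had 3 or more bright probe sets and 37 were read on 2 or more chip types. For 7 genes bright probe sets went at least 2-fold in opposite directions: AI854703, Noct, Pisd-ps3, Rab22a, Slc1a5, Sox12 and Twistnb. At the limit of agreement, Iffo2 lay just inside with a weakest log2 ratio of 1.0014 and Nipa2 just outside at 0.9998, and on the lower side S100a13 lay inside at -1.0011 and Abhd8 outside at -0.98.

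**Figure D1:**
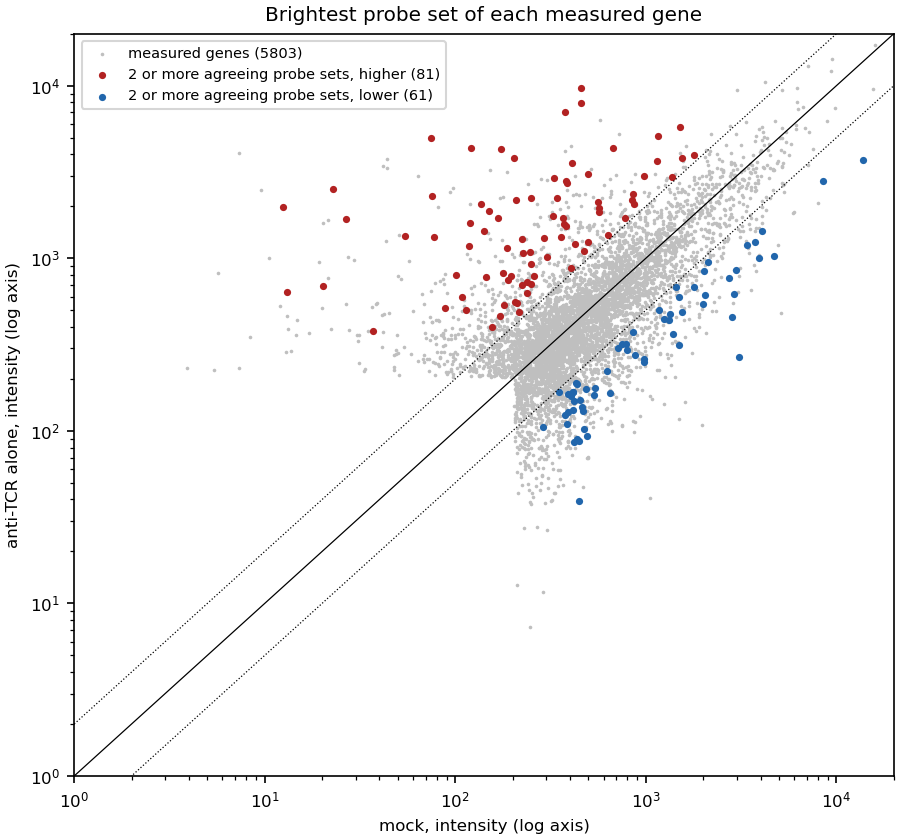
Intensity of the brightest probe set of each of the 5803 measured genes in mock (x axis, log scale) and with anti-TCR alone (y axis, log scale); red and blue points are the 81 and 61 genes with agreeing probe sets, the solid line is equality and dotted lines are 2-fold. The red points reach lower mock values than the blue ones, since a gene that fell had to be bright in mock to be measured.

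Agreeing genes that fell have various roles. Rnf125, a RING ubiquitin ligase that acts on the RIG-I family of RNA sensors, read 2843 in mock and 459.6 with anti-TCR (6.19-fold lower), and 1101 and 215 on a second, suffixed probe set. Pag1, a membrane adaptor that brings the inhibitory kinase Csk to the Src-family kinases, fell from 460 to 138 on chip type C (3.33-fold) and from 362 to 106 on A (3.42-fold). Rgs10, which speeds the switching off of G proteins, fell from 1487 to 316, 4.70-fold, and 2.67-fold on a suffixed set. Each of these 3 genes thus fell on both of its bright probe sets, with close ratios for Rnf125 and Pag1 and unlike ones for Rgs10. Smad4, the shared partner of the receptor-activated Smads in TGF-beta signalling, read 1247 and 446 on A and 686 and 222 on C, which is 2.79-fold and 3.09-fold lower. Mxd4, a Max partner that opposes Myc, had 3 bright probe sets, 1 on each chip type, with log2 ratios of -3.52 (suffixed), -2.45 and -1.54. Nfia, a DNA-binding factor of the nuclear factor I family, fell 3.92-fold and 3.82-fold on C and B. Ripor2, an inhibitor of the small GTPase RhoA, fell from 2977 to 854 on a suffixed set (3.49-fold) and from 221 to 30.9 on the other (at least 4.32-fold).

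Others of the agreeing genes that fell act on lipids, membranes or the cytoskeleton. Scp2, a carrier of sterols and other lipids with a thiolase form, fell from 386 to 110 on a suffixed set and from 449 to 67.7 on the other, or 3.51-fold and 6.64-fold. Sgpp1, the phosphatase that removes the phosphate of sphingosine 1-phosphate, fell 3.16-fold (suffixed) and at least 4.30-fold. Tecpr1, which links autophagosomes to lysosomes, read 2724 and 774 on 1 probe set and 1739.9 and 305 on another, 3.52-fold and 5.71-fold lower. Vamp4, a SNARE of the trans-Golgi network, fell 3.07-fold and at least 4.32-fold, and Trappc11, a subunit of the TRAPP vesicle tether, 3.02-fold (suffixed) and 2.96-fold. Cd47, the surface protein that holds off phagocytes and binds integrins, fell from 3390.4 to 1191 and from 964 to 191. S100a10, the annexin A2 partner, read 4065 and 1440.3 on A and 1332 and 173 on B, 2.82-fold and 7.68-fold lower. Its probe sets gave the same direction and unlike sizes. Lsp1, an actin-binding protein of leukocytes, fell 3.36-fold (suffixed) and 2.86-fold. Glo1, which detoxifies methylglyoxal, fell 2.98-fold and 2.86-fold.

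Further agreeing genes on the lower side were of mixed or little-known role. Polr2e, a subunit shared by the nuclear RNA polymerases, fell from 13776 to 3734 (3.69-fold) and 5.05-fold on a second set, both suffixed. Prxl2c, a peroxiredoxin-like protein, fell 5.31-fold and 3.90-fold, also on suffixed sets alone. Dap, the death-associated protein that was first found in interferon-induced cell death, fell 2.80-fold and 3.44-fold (suffixed). Rnf103, a ubiquitin ligase of the endoplasmic reticulum, fell 2.72-fold (suffixed) and 3.05-fold. Btbd1, Ankra2, Zfp53 and 4933431E20Rik fell too, with log2 ratios of -1.86 (suffixed) and -1.47 for Btbd1, -1.62 and at most -2.10 (suffixed, with anti-TCR below the floor) for Ankra2, and between -2.19 and -1.49 for the other pair. The plot of log2 ratios by probe set shows that spread for each gene.

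**Figure D2:**
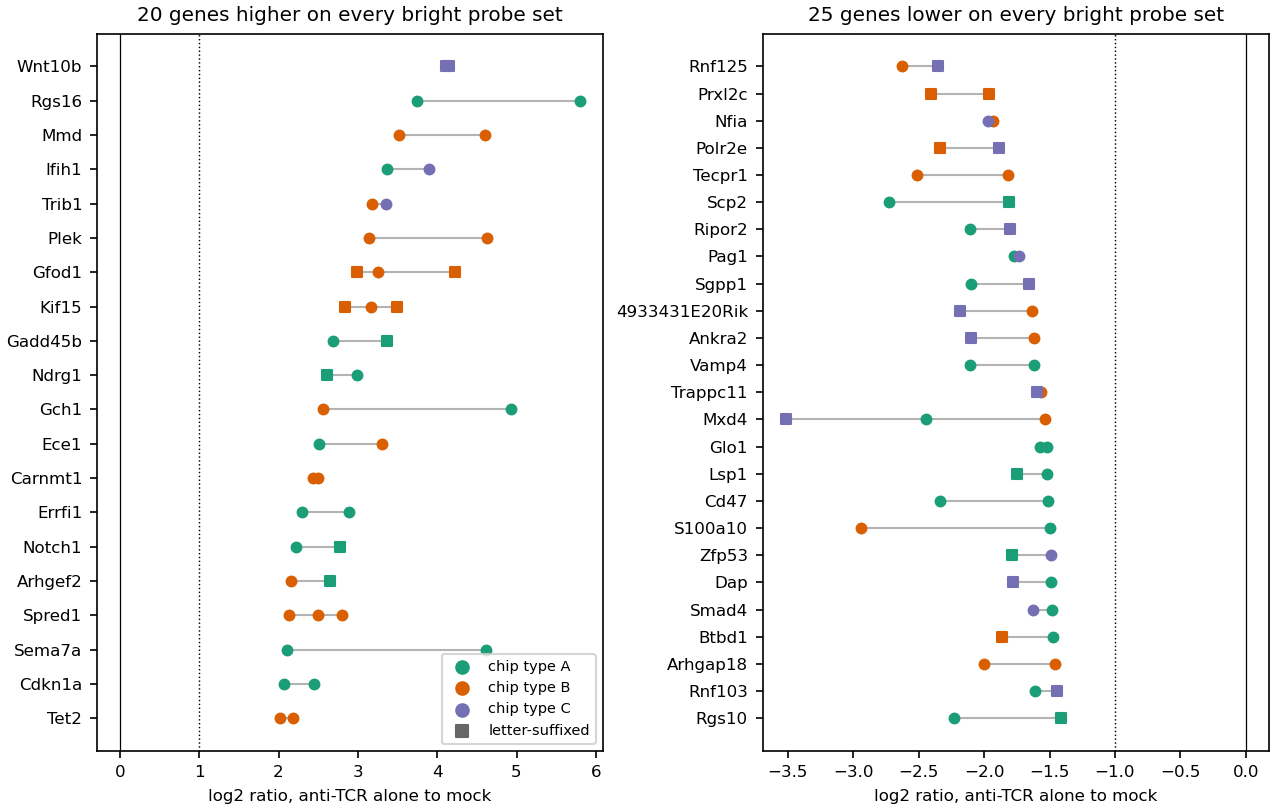
log2 ratio of anti-TCR alone to mock for each bright probe set of the 20 highest and 25 lowest agreeing genes outside the known lists, ranked by the weaker probe set; colour gives the chip type, squares are suffixed probe sets, and dotted lines mark 2-fold. Ratios of a gene lie close together for Wnt10b, Nfia or Pag1 and far apart for Gch1, Sema7a or Mxd4.

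Among agreeing genes that rose were several that act in signalling. Spred1, which blocks the Ras to ERK step, rose on 3 probe sets of chip type B: from 114 to 499, from 119.5 to 675 and from 53.3 to 484, the last with mock below the floor. Rgs16, a negative regulator of G protein signals, read 38.8 and 2847 on 1 set (at least 55.7-fold) and 119.8 and 1607 on another (13.4-fold). Both probe sets of Rgs16 show a large rise, and neither settles its size. Errfi1, a feedback inhibitor of the EGF receptor, rose at least 7.41-fold and at least 4.90-fold. Trib1, a pseudokinase that steers proteins to the COP1 ubiquitin ligase, rose from 249 to 2245 on B and from 54.6 to 560.4 on C (9.02-fold and at least 10.2-fold). Gadd45b, a stress protein that binds MAP kinase kinases, rose 10.3-fold (suffixed) and 6.44-fold. Cdkn1a, the cyclin-dependent kinase inhibitor p21, rose from 109 to 596 and from 107 to 449. Arhgef2, an exchange factor for RhoA, rose 4.47-fold and 6.29-fold (suffixed). Plek, the pleckstrin that protein kinase C phosphorylates, rose from 173 to 4275 (24.7-fold) and at least 8.79-fold on a set with mock below the floor.

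Other agreeing genes that rose encode ligands, receptors, enzymes and proteins of further kinds. Wnt10b, a secreted Wnt ligand, read 459 in mock and 7939 with anti-TCR on 1 probe set and 392 and 6968 on the other, 17.3-fold and 17.8-fold higher. Both sets are suffixed and both lie on chip type C. Sema7a, a membrane-anchored semaphorin, rose 24.5-fold and at least 4.29-fold, and Notch1, the receptor that is cut to release a transcription activator, rose from 367 to 1709 (4.65-fold) and 6.82-fold on a suffixed set. Ece1, a membrane protease that makes endothelin, rose 9.90-fold and 5.72-fold on 2 chip types. Gch1, which makes the first step of tetrahydrobiopterin synthesis, read 75.2 and 2292 on A and 133 and 779.6 on B. Its ratios of 30.5 and 5.87 lie further apart than the spread between chip types. Ifih1, the sensor of double-stranded RNA also called MDA5, rose 14.9-fold on C and 10.3-fold on A. Tet2, an enzyme that oxidises methylcytosine in DNA, rose 4.06-fold and 4.55-fold. Carnmt1, the carnosine methyltransferase, rose 5.39-fold and 5.65-fold. Ndrg1, a stress-induced gene, rose 7.97-fold and 6.11-fold (suffixed). Kif15, a mitotic kinesin, rose on 3 probe sets of which 2 are suffixed, with log2 ratios of 2.83 and 3.49 on those and at least 3.17 on the third, where mock was below the floor. Mmd rose from 26.6 to 1688 and from 68.5 to 796, with mock below the floor on both sets (at least 24.3-fold and at least 11.5-fold). Gfod1 rose 18.7-fold (suffixed), 9.55-fold and, on a suffixed set with mock below the floor, at least 7.93-fold.

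The inhibitor arms give a second view of some of these genes. They also received anti-TCR, and each has 1 array per chip type. Rnf125 read 1376 with CSA, 4899 with PKCi and 2053 with Combo, beside 2843 in mock and 459.6 with anti-TCR alone. Mxd4 read 853, 5412 and 656 in the same order, beside 3068 and 268. For both, on these brightest probe sets, the PKCi value was the highest of the 5 and the anti-TCR value the lowest. On the bright set of Mxd4 on chip type B the Combo value (158.3) lay below that of anti-TCR alone (172). Tecpr1 read 1474, 2473 and 2039, and Cd47 1877, 2789.7 and 3011, all between their mock and anti-TCR values. On the higher side, Plek read 189, 161 and 1633 and Ndrg1 105, 129.6 and 699. Their CSA and PKCi values thus lay near mock, which was 173 and 101. On its brightest probe set Rgs16 read 1244 with CSA and 1844 with Combo, beside 1607 with anti-TCR alone, and 98.6 with PKCi, beside 119.8 in mock. On its other set it read 838, 48.7 and 1077 with CSA, PKCi and Combo, and the 2847 of anti-TCR alone was the highest, so the probe sets of Rgs16 differ in how the arms rank.

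**Figure D3:**
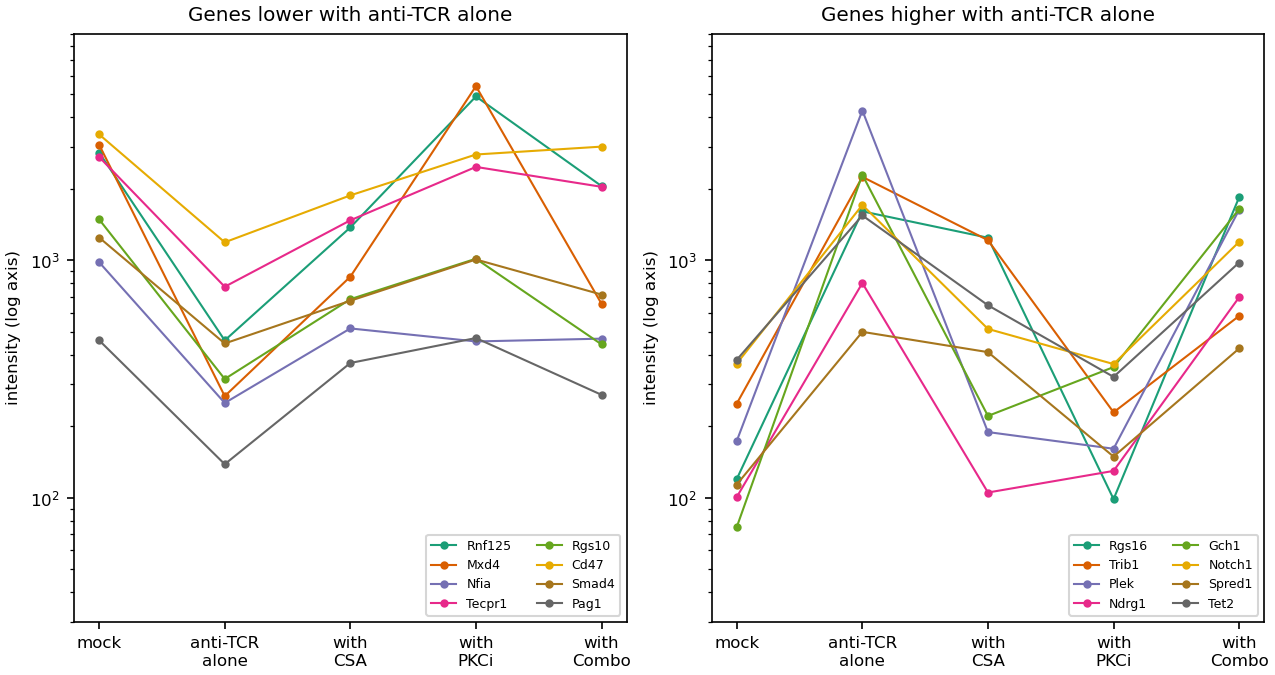
Intensity (y axis, log scale) of the brightest probe set of 8 agreeing genes that fell and 8 that rose, in mock, with anti-TCR alone and with anti-TCR plus CSA, PKCi or Combo; each point is 1 array and lines only join the points of a gene. The genes were picked with their values in view. On the probe sets drawn the anti-TCR value is the lowest of the 5 for each gene on the left. On the right it is the highest except for Rgs16, where Combo is higher on the set drawn and not on the other bright one. Another bright set also ranks otherwise for Mxd4 (Combo 158.3, anti-TCR 172) and Rgs10 (PKCi 209.9, anti-TCR 220.9). The same holds for Gch1 (Combo 1080.5, anti-TCR 779.6) and Ndrg1 (Combo 731.3, anti-TCR 680.6).

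Many of the largest differences rest on 1 bright probe set and have no second reading. Among unsuffixed ones outside the known lists, Srxn1, which repairs oxidised peroxiredoxins, rose from 20.2 to 1602, Traf5, an adaptor of TNF receptors, from 29.5 to 971, and Phlda1 from 97.5 to 2566 (26.3-fold). Rrad, a small GTPase that binds calcium channel subunits, rose 17.2-fold, Rgcc, a regulator of the cell cycle, 16.9-fold, the nucleoside transporter Slc29a1 16.9-fold and the antisense gene Map2k3os at least 18.4-fold. Kdm6b, Rhbdf2 and Spry1 stood above these, with mock values of 7.3, 43.8 and 41.7 below the floor. On the lower side Synrg, a partner of the clathrin adaptor AP-1, read 1048 in mock and 41 with anti-TCR. The sialyltransferase St8sia4 fell from 1491 to 118, Nxpe3 from 5134 to 482 and Card6, a caspase recruitment domain protein, from 866 to 98.6. Crot, which joins peroxisomal fatty acids to carnitine, fell 7.43-fold, and Tmem106b, a lysosomal membrane protein, 7.01-fold. Zfpm2, a partner of GATA factors, fell 7.04-fold, and Castor1, the arginine sensor upstream of mTORC1, at least 6.75-fold. Thap3, Selenon, Akr1b10 and the gamma chain segment Trgv4 fell between 6.64-fold and 7.11-fold. With CSA, PKCi and Combo, Zfpm2 read 155, 487 and 79.1, beside 497 in mock and 70.6 with anti-TCR alone. Thap3 read 315, 453 and 664 in the same order, beside 496 and 69.7.

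Families were read as lists of genes, 40 in all besides the known ones, and each count below is over the members that were measured. It stands against 11.4% higher, 13.9% lower and a median of -0.08 for all measured genes. The 2 highest and 2 lowest members past 2-fold of a list are named by rule, and other members named were picked with their values in view. A member counts by its brightest probe set, also where its other sets read otherwise. A median is said to change sign where another scaling, floor or choice of probe sets turned it. Where a median moved by over 1.5 times under those settings without a change of sign, its range over them is given. The plot of shares by list shows the counts.

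**Figure D4:**
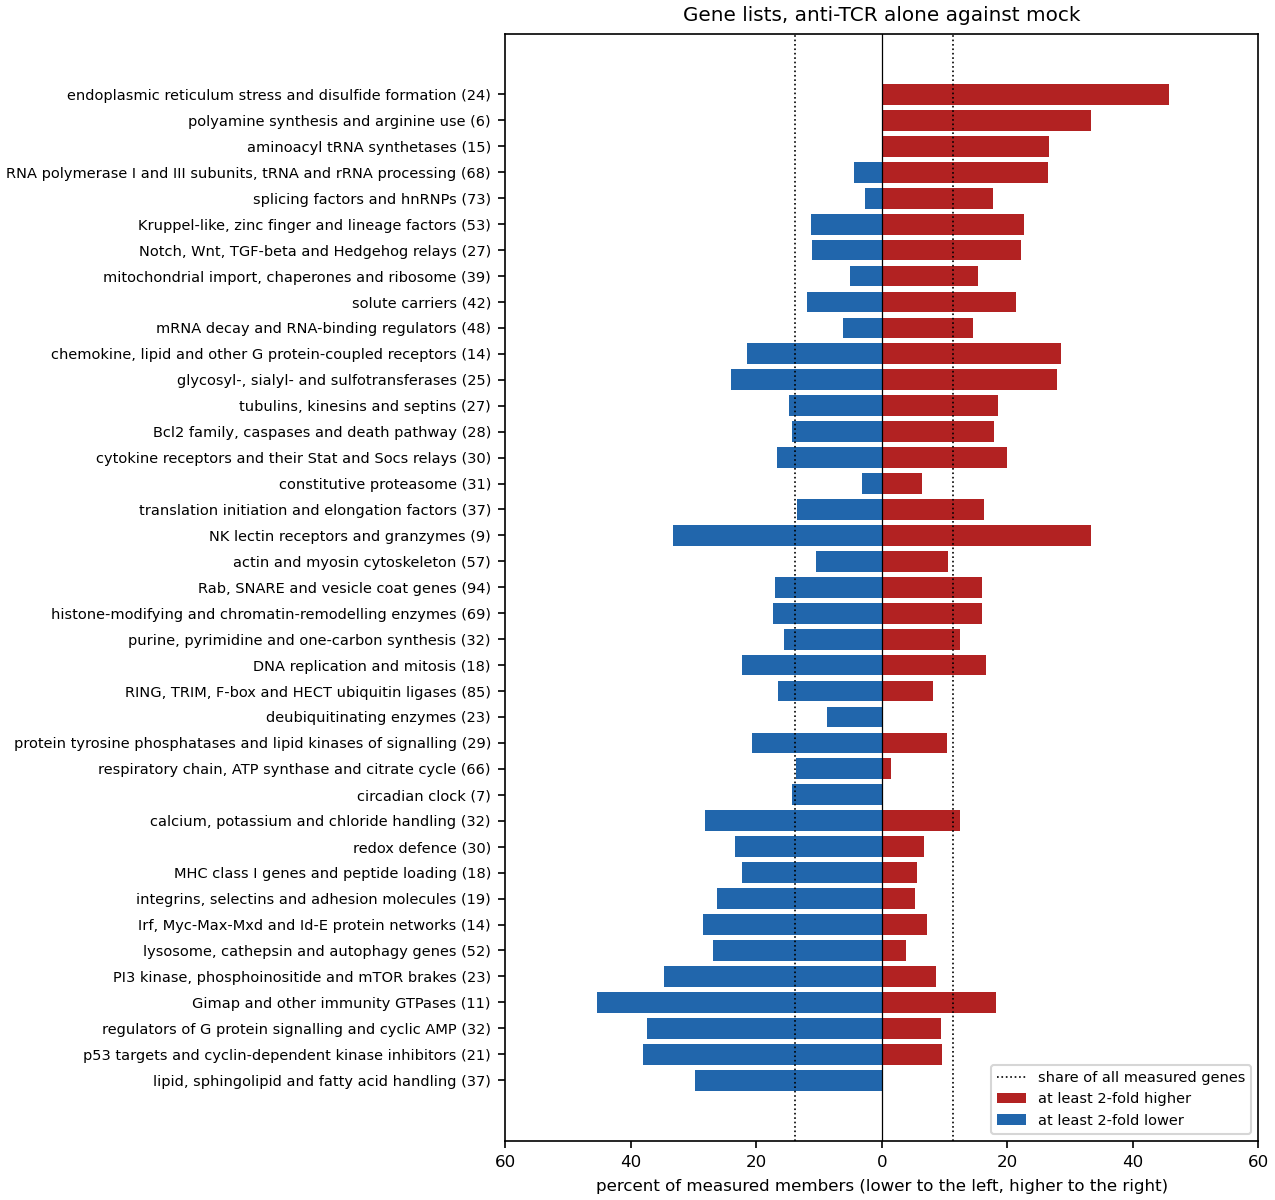
Percent of the measured members of each gene list that were at least 2-fold lower (blue, drawn to the left) or higher (red, to the right) with anti-TCR alone than in mock; the number of measured members is in parentheses, and dotted lines are the shares over all measured genes, 13.9% and 11.4%. Endoplasmic reticulum stress genes stand at one end with 45.8% higher, and lipid handling genes at the other with 29.7% lower and none higher.

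Of 37 measured lipid handling genes (89 on the arrays), 0 rose and 11 fell, with a median log2 ratio of -0.37 (-0.63 to -0.30 over settings). The lowest were Acsbg1, which activates long fatty acids, from 880.4 to 112, and Abcg1, a cholesterol exporter, from 229 to 27.5 (at least 4.48-fold). Enzymes of mitochondrial fatty acid oxidation were among the 11. Acaa2, the thiolase of the last step, fell 4.26-fold, Acadm, the medium-chain dehydrogenase, 4.01-fold, the isomerase Eci2 2.76-fold and Cpt1a, the carnitine transferase at the entry, from 515 to 257 (2.01-fold). Cpt1a lay at the limit and no longer reached 2-fold under other scalings, nor did Npc1 below with arrays scaled to equal medians. Enzymes of sphingomyelin did likewise: Sgms1, which makes it, fell 3.80-fold and on its second probe set from 549.8 to 272, and Smpd1, the acid sphingomyelinase, fell 3.10-fold. Npc1 and Npc2, which together export cholesterol from lysosomes, fell 2.10-fold and 2.40-fold.

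Lysosome and autophagy genes, 52 of 76 measured, counted 14 lower and 2 higher with a median of -0.37. Acp5, an acid phosphatase, was lowest (1597 to 148, suffixed), followed by Ctla2b, an inhibitor of cathepsins (8.79-fold). Ctsc, which activates granzymes, fell on all 3 of its bright probe sets, with log2 ratios from -2.22 to -1.33. Ctss fell from 1583 to 515, Ctsw, a cathepsin of cytotoxic lymphocytes, from 1082 to 327, and the sulfatase Sgsh 3.18-fold. Tpp1, a peptidase, fell 3.54-fold on its brightest set, and its unsuffixed set gave 811 and 444. Map1lc3b, the LC3 protein of autophagosomes, read 584 and 119 on 1 set of chip type A, 518 and 195 on another and 315 and 282 on C, so its probe sets do not give 1 size. The members that rose were Atp6v0b, a subunit of the proton pump (2.41-fold), and Sqstm1, the autophagy receptor p62 (2.37-fold). Among other pump subunits Atp6v1d fell 2.40-fold, Atp6v0e 2.10-fold and Atp6v1g1 2.03-fold, the last pair no longer at 2-fold with arrays scaled to equal medians. The pump subunit Atp6v1a was under 2-fold, with a log2 ratio of -0.63.

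Genes of the respiratory chain, ATP synthase and citrate cycle moved little each, with a lower median. Of 66 measured (86 on the arrays) 9 fell and 1 rose, with a median of -0.38. The share that fell, 13.6%, was near the 13.9% of all genes. The lowest were Ndufb10 of complex I, from 397 to 149.9 (2.65-fold), and Suclg1 of the citrate cycle, from 367 to 142 (2.59-fold). Ndufs7, Ndufb9, Ndufa7, Ndufs4, Sdhd, Idh3g and Cox7a2l lay between 2.01-fold and 2.20-fold lower. With arrays scaled to equal medians Ndufb9, Ndufa7, Ndufs4, Sdhd and Idh3g no longer reached 2-fold. Ndufb2 rose 2.12-fold on a suffixed set, and its other bright set, also suffixed, read 596 and 669. Redox defence genes (30 measured) counted 7 lower and 2 higher, median -0.10 (-0.38 to -0.05 over settings). Mgst2, a glutathione transferase, fell 4.96-fold and Prdx2, a peroxiredoxin, 3.46-fold (suffixed). Glrx, the glutaredoxin, fell from 876 to 269.7 and Gpx4, which reduces lipid peroxides, 2.08-fold, a call lost with arrays scaled to equal medians. Srxn1 and Txndc5 (2.53-fold) rose. Sod1 fell 3.25-fold on a suffixed set, whereas its unsuffixed one read 1262 and 1045.

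Regulators of G protein signalling and cyclic AMP had the lowest median of the 40 lists, -0.72 over 32 measured members, of which 12 fell and 3 rose. The Gimap list was close, at -0.70. Over settings the medians ran from -0.75 to -0.52 and, for the Gimap list, from -0.87 to -0.69, so the order of the pair was not fixed. Lower members lay at several steps of the cyclic AMP relay. Adcy7, which makes cyclic AMP, fell from 1529 to 528, and Prkacb, a catalytic subunit of its kinase, from 1132 to 397. Creb1, a target of that kinase, fell 2.36-fold on 1 set and not to 2-fold on the other (246 and 184). The phosphodiesterases that break cyclic AMP down were lower too: Pde4d fell 4.62-fold, Pde7a 2.61-fold (and 422 to 177 on its second set) and Pde4b 2.11-fold. The second set of Pde4b read 285 and 167, and its call was lost as the mean of both sets. Among RGS proteins the members split. Rgs10, Rgs14 (2.57-fold) and Rgs19 (2.21-fold, suffixed) fell, and Rgs16 and Rgs3 rose, Rgs3 from 479.7 to 2343, with 399.6 and 724 on its second set. Receptors upstream included both directions as well. Of 14 G protein-coupled receptors 4 rose and 3 fell; the prostaglandin E receptors Ptger4 (151 to 1286) and Ptger2 (3.40-fold), which raise cyclic AMP, and Gpr65, an acid sensor (7.09-fold), were higher, and Ccr2 (668 to 131), a chemokine receptor, and Lpar6 (4.19-fold, suffixed) were lower.

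**Figure D5:**
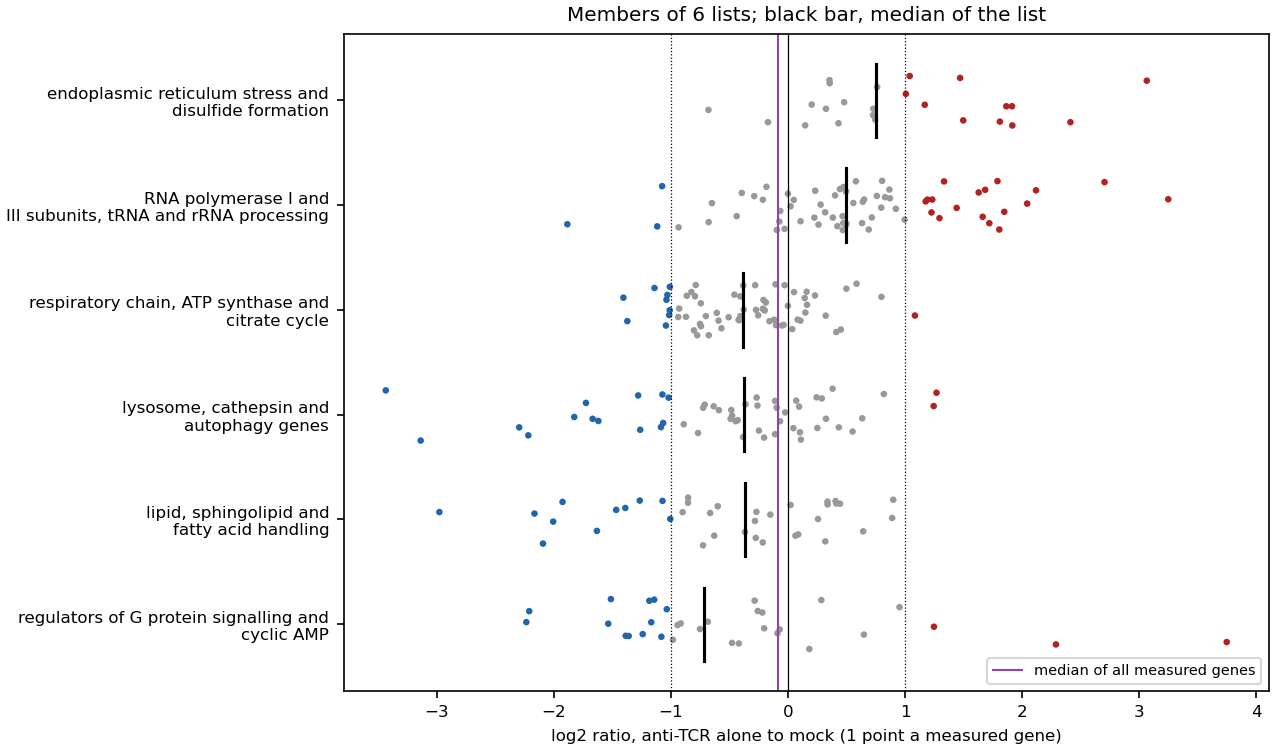
log2 ratio of anti-TCR alone to mock for the measured members of 6 lists (1 point a gene, vertical position within a row is arbitrary); red and blue are at least 2-fold higher and lower, black bars are list medians and the purple line is the median of all measured genes, -0.08. The upper lists have medians of 0.75 and 0.50 and the lower lists medians from -0.37 to -0.72.

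The list of phosphoinositide 3-kinase and mTOR genes (23 measured) holds brakes on these pathways and also parts that drive them. It counted 8 lower and 2 higher, median -0.46. Pik3ip1, an inhibitor of the kinase, read 936 and 122 (suffixed), Sesn1, which restrains mTORC1, 351 and 70.2, and Txnip, which limits glucose uptake, 2267 and 744 (suffixed). Parts of the kinase itself were among the 8 that fell, Pik3r1 2.39-fold on its brightest set and Pik3cg 2.49-fold. The other set of Pik3r1 read 312 and 255. Rheb, the GTPase that switches mTORC1 on, rose 2.12-fold, and Trib1 rose as above. Rasa3, which switches Ras and Rap off, fell from 498 to 119.9. Gem, a relative of Rrad that binds calcium channels, rose from 3.9 to 232 (at least 4.54-fold). Rasa2, a Ras GTPase-activating protein, rose on 3 probe sets, from 246 to 1081, from 321 to 799 and from 198 to 754.

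Calcium, potassium and chloride genes (32 measured) had 9 lower and 4 higher, median -0.36. S100a13 fell 4.69-fold on its brightest of 3 sets, and S100a4 2.60-fold. The store-operated entry pair was lower in both parts, Stim1, the sensor of the store, from 576 to 276 (2.09-fold) and Orai2, a channel, from 414 to 155 (2.66-fold). The call of Stim1 was lost with arrays scaled to equal medians, and its second set, a suffixed one, read 311 and 164. The inositol trisphosphate receptor Itpr2 fell 2.92-fold (suffixed) and the store pump Atp2a3 2.20-fold. Kcnn4, the calcium-activated potassium channel of T cells, rose from 446 to 2313, and its second set read 177 and 336. Kcnk5, another potassium channel, rose 4.14-fold. Atp2b1, the plasma membrane calcium pump, rose 3.25-fold and read 309.5 and 434 on a second set. The second sets of Kcnn4 and Atp2b1 were thus under 2-fold. Phosphatases and adaptors that tune receptor signals (29 measured) had 6 lower and 3 higher, and their median of 0.03 changed sign. Besides Pag1, Sit1 (2.72-fold), Dgka, which removes diacylglycerol (302 to 125), and Dok2 (2.21-fold, suffixed) were lower, while Sla, the adaptor that lowers TCR levels, rose 3.81-fold and from 432 to 1509 on a second, suffixed set. The phosphatase Ptpn1 rose from 594 to 1861 on its brightest set and read 2069 and 1548 on its second one.

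MHC class I and peptide loading genes (18 measured) had 4 lower and 1 higher, median -0.53 (-0.59 to -0.34 over settings): Cd1d1 fell from 333 to 43.7, the immunoproteasome subunit Psmb9 3.82-fold, the peptide transporter Tap1 2.52-fold and the class I activator Nlrc5 2.04-fold. Pdia3, a disulfide isomerase of the loading complex, rose from 198 to 1059.7. Gimap and other immunity GTPases (11 measured) had 5 lower and 2 higher, median -0.70. The Gimap genes, which support lymphocyte survival, split. Gimap7 (959.6 to 172) and Gimap4 (2361 to 964) fell, as did the immunity GTPase Irgm2 (252 to 89.1), while Gimap1 (229 to 948) and Gimap5 (1427 to 3065) rose, Gimap5 no longer by 2-fold under quantile normalization. Of factors of the Irf and Myc-Max networks (14 measured, 4 lower and 1 higher, median -0.38), Irf2bp2 fell 4.72-fold and Irf7 2.48-fold (suffixed), while Irf8 rose from 148 to 1404. Among 30 cytokine receptors and their relays 6 rose and 5 fell, with a median of 0.05 that changed sign. Il7r, the interleukin 7 receptor, fell from 2215 to 492, Ifngr1 from 551 to 130.1 and Stat4 3.78-fold, and the feedback inhibitors Socs1 (117 to 1196) and Cish (5.92-fold) rose with Jak3 (10.2-fold, suffixed) and Jak2 (3.49-fold).

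p53 targets and inhibitors of cyclin-dependent kinases (21 measured) had 8 lower and 2 higher, median -0.45. Plk3 was lowest, 1961 and 109 on a suffixed set, and Sesn1 next. Rbl2, a pocket protein of resting cells, fell 3.57-fold, the G-type cyclins Ccng2 and Ccng1 2.54-fold and 2.34-fold, and the p53 targets Ddb2, Zmat3 and Trp53inp1 between 2.48-fold and 3.25-fold. The members that rose were Cdkn1a and Ccnd2, a G1 cyclin (279 to 1727). Mdm2, the ubiquitin ligase of p53, rose 4.14-fold on its brightest set, and its other bright set read 269 and 286. Among all 85 measured ubiquitin ligases 14 fell and 7 rose, median -0.30. Rnf13 fell 5.04-fold, Nedd4, a HECT ligase, 4.46-fold and the large interferon-induced Rnf213 from 1289 to 279. Trim8 rose from 19.3 to 956, and Rnf128, the ligase known as GRAIL and linked to anergy, from 247 to 496 (2.01-fold), at the limit.

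Of 24 measured genes of endoplasmic reticulum stress and disulfide formation (38 on the arrays) 11 rose and 0 fell, with a median of 0.75. In the unfolded protein response, sensors in the membrane of the reticulum activate the factors Xbp1, Atf6 and Atf4, which raise chaperones; Atf6 and its partners bind a promoter element called ERSE. Xbp1 read 648 in mock and 1829.6 with anti-TCR (2.82-fold) and Atf4 538 and 1960.4. The chaperone Hspa5 (BiP) rose from 876 to 3068 and its co-factors Sdf2l1 and Dnajb11 3.77-fold and 2.25-fold. Creld2, a stress-induced protein of the reticulum, rose from 69 to 367, Hyou1 2.06-fold, and Chac1, which breaks glutathione down, 3.77-fold. Sesn2, a stress-induced sestrin, rose from 13.1 to 459.8 (suffixed). The fall of Sesn1 and the rise of Sesn2 run opposite within the sestrins. Each of these was read on 1 bright probe set; Ssr3, with 2, rose on 1 (709 to 1424) and read 295 and 307 on the other.

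The promoters of this list were searched for ERSE. Promoter sequence was matched by gene identifier in a RefSeq table for the build GRCm38.p6 for 32 of the 38 genes, and the 250 bases before the start site were searched on both strands. ERSE, spelled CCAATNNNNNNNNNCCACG, was found in 6 of the 32 (18.8%) and in 33 of the 27025 promoters of all genes (0.122%). The 4 measured genes with a match are printed with the match in capitals, since they split by response: Hspa5 and Creld2 rose, and Hsp90b1 and Dnajc3 had log2 ratios of 0.43 and 0.48. The other holders, Pdia6 and Ero1b, were not measured. Hspa5 lies at chr2:34771840-34772089 (plus strand), Creld2 at chr15:88819396-88819645 (plus), Hsp90b1 at chr10:86705445-86705694 (minus) and Dnajc3 at chr14:118937682-118937931 (plus), and each runs from 5′ to 3′ along the gene.
Hspa5: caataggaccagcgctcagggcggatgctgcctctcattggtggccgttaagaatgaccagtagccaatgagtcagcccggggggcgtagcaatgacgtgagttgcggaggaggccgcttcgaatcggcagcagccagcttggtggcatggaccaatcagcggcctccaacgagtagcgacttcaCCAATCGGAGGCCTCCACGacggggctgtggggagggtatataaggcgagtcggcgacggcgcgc
Creld2: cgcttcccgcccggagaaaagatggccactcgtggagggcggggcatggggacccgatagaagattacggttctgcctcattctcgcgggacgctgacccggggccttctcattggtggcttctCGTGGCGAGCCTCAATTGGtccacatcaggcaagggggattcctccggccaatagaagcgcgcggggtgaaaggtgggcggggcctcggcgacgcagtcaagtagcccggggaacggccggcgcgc
Hsp90b1: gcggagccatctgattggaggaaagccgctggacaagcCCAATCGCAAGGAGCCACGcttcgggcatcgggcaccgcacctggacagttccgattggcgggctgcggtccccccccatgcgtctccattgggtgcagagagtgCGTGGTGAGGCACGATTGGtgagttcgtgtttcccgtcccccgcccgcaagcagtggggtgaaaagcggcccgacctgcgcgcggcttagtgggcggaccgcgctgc
Dnajc3: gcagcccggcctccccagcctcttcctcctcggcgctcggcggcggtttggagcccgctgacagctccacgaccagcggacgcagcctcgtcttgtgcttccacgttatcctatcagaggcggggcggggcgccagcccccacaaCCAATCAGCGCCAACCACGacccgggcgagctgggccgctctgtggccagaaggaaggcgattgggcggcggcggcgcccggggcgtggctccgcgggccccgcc
The match of Creld2 and the second match of Hsp90b1 are on the opposite strand. A match describes the letters and not a bound site, and it was present in genes that rose and in genes that did not reach 2-fold.

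Of 68 measured subunits of RNA polymerases I and III and factors that process ribosomal and transfer RNA, 18 rose and 3 fell, median 0.50. Rrp15, needed for the large ribosomal subunit, rose from 384 to 2502, and Noc3l from 36.6 to 522 on a suffixed set, with 188 and 308 on its other set. SnoRNP proteins were among them: Gar1 rose from 765 to 2458, Imp3 4.34-fold and Nop58 2.52-fold (suffixed). Pop5, a subunit of RNase P, rose 3.46-fold, Polr1d, shared by polymerases I and III, 3.17-fold, and the transfer RNA methylase Nsun2 3.29-fold (suffixed; its other sets read 352 and 508, and 60.1 and 303). Polr2e and Taf1b (2.17-fold) were the lowest, but the other bright set of Taf1b read 187 and 243, and its call was lost as the mean of both sets. The Myc binding letters CACGTG lay in 6 of 90 promoters of this list (6.67%). The share was 6.05% of all promoters and 8.51% of those of measured genes under 2-fold. The cyclic AMP element TGACGTCA lay in 7 of the 90 (7.78%), against 1.62% of all promoters and 2.80% of those of measured genes under 2-fold. Aminoacyl tRNA synthetases (15 measured) had 4 higher and 0 lower, median 0.52: Tars rose from 71.4 to 262, Iars from 241 to 821, Cars 2.68-fold and Gars 2.63-fold, while a second set of Gars read 389 and 277. Polyamine genes (6 measured) had 2 higher and 0 lower, median 0.54, with Srm, the spermidine synthase, 7.33-fold (suffixed) and Azin1, which keeps ornithine decarboxylase active, 3.83-fold. The second set of Srm, also suffixed, read 373 and 569.5, under 2-fold.

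Of 73 measured splicing factors 13 rose and 2 fell, and the median was 0.02 (0.01 to 0.10 over settings). Hnrnpll, which directs the splicing of CD45 in T cells, rose from 1513 to 5785 on B and from 1407 to 4014 on A. Srsf1 rose from 155 to 401 and from 77.4 to 293, and Sfpq 5.85-fold and Lsm2 4.23-fold on suffixed sets. Srsf11 shows how probe sets can differ: of 5 bright ones, the chosen set gave 1.84 and the others lay between -0.40 and at least 2.45. Srrm2, Srsf6 and Prpf38b also rose on their brightest sets, with log2 ratios of 1.27, 1.16 and 1.41. Like the call of Srsf11, theirs were lost as the mean of bright sets. Snrpb fell 7.04-fold (suffixed) and Lsm7 3.53-fold. Mitochondrial import and ribosome genes (39 measured) had 6 higher and 2 lower, median 0.07 (0.01 to 0.14 over settings). Phb2, a prohibitin, rose from 305 to 1018 and from 179.7 to 742, Tomm40, the outer membrane pore, 4.00-fold (suffixed) and 63.2 to 357 on its other set, Mrps6 5.28-fold and the chaperone Hspa9 3.85-fold. The ribosomal protein Mrps21 fell from 344 to 157 and the import pore subunit Tomm7 from 1967 to 957. Solute carriers (42 measured) had 9 higher and 5 lower, median 0.08 (0.05 to 0.16 over settings). Slc29a1, given above, and Slc12a4, which was suffixed and rose from 22.4 to 388, were highest, and Slc26a11 fell from 292 to 77.9. Slc3a2 and Slc7a5, the partners of a large neutral amino acid carrier, rose from 694 to 3033 and from 219.6 to 1046, and Slc38a1, a glutamine carrier, 6.30-fold. The glutamine carrier Slc1a5 is counted as lower by its brightest set and could not be given a direction: its sets gave log2 ratios of -1.93 and 1.12 (both suffixed) and 3.60.

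Several families held marked members in both directions. Of 69 measured chromatin enzymes 11 rose and 12 fell, median -0.28. Kdm6b, which removes methyl groups from lysine 27 of histone H3, was highest, and Dnmt3a, a DNA methyltransferase, rose from 172 to 963. Smarca5, a remodelling ATPase, rose on 3 probe sets, from 358 to 1324, from 125 to 457 and from 77.1 to 232. Kdm6a, which acts on the same mark as Kdm6b, fell 2.29-fold, and Ezh1, which writes that mark, from 361 to 108. The methyltransferases Kmt2c and Kmt2a fell 3.38-fold and 2.14-fold, Ncoa1 3.88-fold and Hmgb2 at least 4.81-fold (suffixed). Of 53 lineage and zinc finger factors 12 rose and 6 fell, median -0.10. Bcl6 (54.1 to 308) and Tcf3 (5.63-fold, suffixed) were highest, Tox rose 3.57-fold and Klf13 5.62-fold, with 861 to 2086 and 386 to 346 on its other sets. Nr1d2, a clock repressor, fell 4.20-fold, Bcl11b, which guards T cell identity, 2.79-fold and Foxo3 2.59-fold. Mef2d fell 3.06-fold on 1 set and read 731 and 1110.4 on the other. In the TGF-beta and Notch relays (27 measured, 6 higher and 3 lower, median 0.13) Smad3 rose from 198 to 530.3 while Smad4 and Smad7 (2.43-fold) fell, and Notch1 rose while Notch2 fell from 407 to 145. Pmepa1, a TGF-beta target, and Tgif2, a Smad repressor, rose 5.13-fold and 4.28-fold.

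Glycosyl-, sialyl- and sulfotransferases (25 measured) had 7 higher and 6 lower, with a median of 0.09 that changed sign. The chondroitin sulfotransferases went opposite ways, Chst11 from 227 up to 955 and Chst12 from 667 down to 100.1. The sialyltransferases St8sia4 and St3gal6 (3.86-fold) and the fucosyltransferase Fut7 (2.15-fold, suffixed), which builds selectin ligands, fell. Ext1, a heparan sulfate polymerase, rose at least 8.60-fold (suffixed) and B4galt5 4.37-fold. Of 19 adhesion genes 5 fell and 1 rose, with a median of 0.03 that changed sign; Selplg, the P-selectin ligand that such sugars decorate, fell from 3448 to 1140.4, Cd96 3.89-fold and Cd47 as above, and Bsg rose 2.73-fold. Rab, SNARE and coat genes (94 measured) had 15 higher and 16 lower and a median of -0.07 that changed sign. Stx11, a SNARE of lytic granule release, rose from 672 to 4363 and 152 to 330.2 on a second, suffixed set, and Rab27a, which docks granules, from 651 to 2271. Tbc1d4, which restrains glucose transporter traffic, fell 5.75-fold. Stx6 rose 4.55-fold. Of 9 measured NK lectin receptors and granule genes 3 rose and 3 fell, median 0.86 (0.12 to 0.93 over settings). Gzmb rose from 455 to 2021 and Gzmd from 601 to 2647 (suffixed; granzymes are near copies, so reads of 1 may come from another), and Srgn, the proteoglycan of granules, 4.08-fold. The receptor chains Klre1 (1115 to 409), Klrd1 (4063 to 1594) and Klrk1 (2.28-fold) fell.

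The remaining lists are given by their counts. Actin and myosin genes (57 measured) had 6 each way, median -0.17 (-0.23 to -0.10 over settings); Tpm4 (382 to 2108) and Myo10 (5.45-fold) rose, and Ablim1 (3.72-fold) and Lsp1 fell. Tubulins, kinesins and septins (27) had 5 higher and 4 lower. Septin11 rose from 411 to 3572 and, on a second set, from 117 to 239, and the kinesins Kif22 (3.73-fold, suffixed) and Kif21b (3748 to 1447) fell. Their median of -0.10 changed sign, as did that of 28 death pathway genes (5 higher, 4 lower, -0.10), of 18 replication and mitosis genes (3 higher, 4 lower, -0.05), of 31 proteasome genes (2 higher, 1 lower, 0.02), of 23 deubiquitinases (0 higher, 2 lower, -0.07) and of 7 clock genes (0 higher, 1 lower, -0.02). In the death list Tnfaip8l2, an inhibitor of immune activation, fell from 367 to 48.8 and Pycard, the inflammasome adaptor, 4.45-fold. In the replication and mitosis list Rpa1, which binds single-stranded DNA, fell from 391 to 87.5 and Mad2l1, a spindle checkpoint protein, from 274 to 69.1. Incenp and Cdc45, both suffixed, were highest there: Cdc45, part of the replicative helicase, rose 2.13-fold, and Incenp read 725 and 5229 on its brightest set, with a log2 ratio of -0.34 on its other one. The proteasome subunit Psmd3 rose from 143 to 429 and the activator Psme3 2.59-fold, and the assembly chaperone Psmg2 fell from 396 to 95. The deubiquitinases Uchl3 and Usp48 fell 2.92-fold and 2.31-fold, and Tef of the clock list 2.32-fold. The clock repressor Nr1d2, lower as given above, was counted among the lineage factors and not in the clock list. Translation factors (37) had 6 higher and 5 lower, median 0.09 (0.05 to 0.27 over settings). Eef1e1 rose from 449 to 1632 and Eif3i 2.70-fold (suffixed). The lower ones included the inhibitors Pdcd4, from 1432 to 327, Paip2, 4.56-fold, Eef2k, 3.34-fold, and Eif4ebp2, 2.51-fold. Other bright sets of Eef2k gave log2 ratios between -3.03 and -0.59, and that of Eif4ebp2 read 449.5 and 246. The elongation factor Eef2, not an inhibitor, fell from 1069.5 to 521.8 on its brightest set and read 991.9 and 899.1 on its other one. Its call was lost with arrays scaled to equal medians and as the mean of its sets. Nucleotide and one-carbon genes (32) had 4 higher and 5 lower, median -0.18 (-0.18 to -0.0020 over settings). Samhd1, which destroys deoxynucleotides, fell 5.16-fold and Taldo1, the transaldolase, 2.72-fold, while Tk2, the mitochondrial thymidine kinase, rose from 526 to 1545 and Mthfd2 2.44-fold. RNA decay genes (48) had 7 higher and 3 lower, median -0.28 (-0.29 to -0.14 over settings). Exosc3 rose 3.61-fold and Zfp36l1 3.41-fold, and Slfn1, a Schlafen gene linked to quiescence, fell 3.16-fold. Zc3hav1, an antiviral zinc finger protein, fell from 1261 to 568 on its brightest set and had a log2 ratio of -0.76 on its second.

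Some properties outside the expression values were compared as descriptions. The median genomic length of the genes that fell was 27.0 kb, against 19.4 kb for those that rose and 22.7 kb for genes under 2-fold. For agreeing genes the median was 35.5 kb on the higher and 36.6 kb on the lower side. The median GC content of the 250 promoter bases was 61.6% for genes that rose (promoters matched for 529 of 659), 58.8% for genes that fell (658 of 808) and 60.4% for the others (3535 of 4336). The letters TGANTCA of AP-1 lay in 3.78% of promoters of genes that rose, 3.95% of those that fell and 3.99% of the others. The core GGAAAA of NFAT lay in 16.1%, 19.1% and 18.7%, and GTAAACA of FOXO factors in 2.46%, 3.34% and 2.18%. TGACGTCA, the cyclic AMP element, lay in 3.40% of promoters of genes that rose and 1.52% of those that fell, with 2.80% in the others. TCACGTGA, the core of the CLEAR element bound by TFEB, contains the CACGTG letters above. It lay in 5 of 57 promoters of the lysosome list (8.77%), against 0.803% of all and 1.90% of those of measured genes under 2-fold. Of the holders in that list Ctsd, Atp6v1a, Atg3 and Mcoln1 were measured, and none reached 2-fold.

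Probe sets without a single gene symbol add 1409 bright ones, of which 136 were higher (9.65%) and 143 lower (10.1%). The ones with the largest differences are given with the flagged results.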

How the data were processed

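RNA of A.E7 cells was read on 3 Affymetrix chip types. The deposited tables hold 1 array intensity per probe set on a linear scale, as the authors made it; the software, the scaling and the background correction behind the intensities are not given in the sources used here. No detection calls were used. Scaled values give a probe set's share of an array's signal and not the amount of RNA per cell. Values were used as deposited. Gene symbols came from the platform's annotation: 29131 probe sets have 1 symbol, 724 several and 6846 none, the last 2 kinds being left out of gene counts, and a current RefSeq table, matched for 29044, changed 0 symbols. Between 17.4% and 22.8% of the probe sets of an array reached 4 times the floor. Spread was the SD of differences between log2 ratios of probe sets of a gene, divided by the square root of 2; pairs of the same gene share probe sets, and the spread covers probes and arrays, not cultures. Genes named are the 20 highest and 25 lowest agreeing genes by their weakest probe set, the 10 highest and 15 lowest unsuffixed genes with 1 bright probe set, the 2 highest and 2 lowest past 2-fold of each list, and the markers; others are marked in the text. The members, lists and rules were chosen with earlier results of these data known. The counts of 1 of the 40 lists and the values of 1 of the 25 agreeing genes are not given in the text. The steps were tested on simulated data and run with Python 3.11.15, numpy 2.4.6 and pandas 2.3.3. Alternatives were other scalings, floors and brightness minimums, leaving out suffixed probe sets or a chip type, and the mean of a gene's bright probe sets.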

Additional observations from a re-analysis of the deposited data

Results flagged for a closer look

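Signal also appeared in probe sets that carry no single gene symbol and so enter no gene count. The probe set 97519_at on chip type A read 123 in mock and 3175 with anti-TCR alone (25.9-fold higher), and 2859, 92.4 and 2409 with CSA, PKCi and Combo. The suffixed probe set 141035_i_at on chip type C read 73.7 in mock and 1825 with anti-TCR alone (24.8-fold higher), and 2074, 157 and 379 in the inhibitor arms. Both were above the mock level by more than the spread between probe sets of a gene; neither has a second reading. On the lower side, 162341_r_at (suffixed) fell from 724 to 71.2 (10.2-fold), and 117273_at from 377 to 60.3 (at least 5.43-fold).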

How the results depend on the processing

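No paired analysis was possible because each treatment has 1 pool of RNA, read once per chip, with no numbered replicates to pair. Several of the alternatives below keep fewer probe sets, and the rule of the same side of 0 is looser than the main one. The cause of the shifts was not tested. Without chip A, 396 genes rose and 473 fell, and with a minimum of 8 times the floor 468 fell. Agreeing genes that rose numbered 41 without chip A, 39 without chip B and 44 when probe sets had to lie on 2 or more chip types (chosen after seeing the data), and 145 when every bright probe set had only to lie on the same side of 0. Agreeing genes that fell numbered 30 without chip A, 33 without chip B, 38 without chip C, 27 at a minimum of 8 times the floor, 34 without suffixed probe sets, 37 on 2 or more chip types and 115 on the same side of 0. The other 32 counts lay within 1.5 times the main one. Rises made up 44.9% of the changed genes and 49.4% after scaling to equal medians. Incenp, 2.85 as reported, read -0.34 without suffixed probe sets, and Slc1a5, -1.93 as reported, read 3.60 without them and 0.93 as the mean of its bright probe sets; the cause was not tested. Of the list medians under alternatives 235 moved by less than the spread between probe sets of 1 gene, scaled down by the root of how many genes the list measured, and 23 by more. Of the values of named genes 1090 were the same, 52 moved and 3 reversed. Signal limits the rest. In the main setting a gene has no ratio if its brightest probe set stayed under 4 times the floor in mock and with anti-TCR alone.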
